A study of Mus musculus with 8 samples.

Results

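The miRNAs linked to synaptic activity, miR-132 with miR-212 and both arms of miR-129, were looked for on a card of TaqMan miRNA assays. Of the 4 names, 3 have an assay in the Ct table (mmu-miR-132, mmu-miR-129-3p and mmu-miR-129-5p), out of 375 miRNA assays in all. mmu-miR-212 has no entry there and is not analysed here, so no ratio of miR-132 to miR-212 was computed. RNA came from the ventral part of the lumbar spinal cord of 4 wild type samples of the FVB strain and 4 MLC/SOD1[G93A] samples on the same strain background, all from mice at 4 months of age. MLC/SOD1[G93A] mice carry mutant SOD1 under the Myosin Light Chain promoter, which is active in muscle, so the transgene is driven outside the tissue that was measured. The labels number the samples as replicates and do not say whether each one is a separate mouse, so the p-values measure the spread between these samples. The card holds no assay for the transgene, and the genotype could not be checked in these values.

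miRNAs are short RNAs that guide the silencing of mRNAs, mainly through pairing of their seed, which is bases 2 to 8. miR-132 and miR-212 are cut from neighbouring hairpins of one transcript, whose expression in neurons is induced by activity through the transcription factor CREB, and miR-132 is known for promoting dendrite growth and spine formation. miR-129-5p is known from hippocampal neurons, where it represses the potassium channel Kv1.1 and takes part in the scaling of synapses to activity. miR-129-3p is cut from the other arm of the same hairpins. A hairpin yields both arms together, and the arms can then be kept or degraded to different extents. The ratio of the arms can be compared between samples without any reference RNA, because a reference would shift both arms of a sample alike.

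The mature sequences from RefSeq (assembly GRCm38.p6) are given to show which RNAs the assays are named for and which seeds they carry, with the seed in capitals:
miR-132 (RefSeq miR-132-3p, Mir132): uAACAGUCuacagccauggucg
miR-212 (RefSeq miR-212-3p, Mir212): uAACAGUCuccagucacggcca
miR-129-5p (Mir129-2 and Mir129-1): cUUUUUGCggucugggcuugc
miR-129-3p (RefSeq miR-129-2-3p, Mir129-2): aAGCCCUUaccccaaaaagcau
The older card names miR-132 and miR-129-3p were matched to miR-132-3p and miR-129-2-3p. miR-132 lies at chr11:75173723-75173744 and miR-212 at chr11:75173443-75173464, both on the + strand, with 203 bases between their hairpins. They share the seed AACAGUC and 17 of 22 bases. With positions counted from 1 at the 5′ end of miR-132, they differ by A10C, C14U, U17C, U20C and G22A. miR-212 is the only other one of the 1679 mature miRNAs in the table with this seed. No other entry has the seed of miR-129-5p or of miR-129-3p.

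The miR-129 hairpins show what each assay can tell apart, with both arms in capitals:
Mir129-2, chr2:94241364-94241453, - strand: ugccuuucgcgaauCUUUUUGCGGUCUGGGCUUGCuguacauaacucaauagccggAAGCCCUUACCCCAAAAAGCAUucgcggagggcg
Mir129-1, chr6:29022619-29022691, + strand: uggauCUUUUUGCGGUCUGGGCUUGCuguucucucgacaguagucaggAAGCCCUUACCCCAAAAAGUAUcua
The 5p arm is identical in both hairpins. The 3p stretch of Mir129-1 differs from miR-129-2-3p by 1 of 22 bases, C20U, counted from the 5′ end of miR-129-2-3p. The 5p assay therefore cannot tell the genes apart, and whether the 3p assay reads one gene or both is not given in the sources used here.

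Each assay gives a threshold cycle (Ct), and each cycle fewer means close to a doubling of the template. Values beyond 35 cycles were treated as missing. Levels are given on the log2 scale as the reference Ct minus the Ct of the miRNA, so that a higher value is more miRNA. The reference was the mean of the 4 U6 wells of the sample or the global mean, the average Ct over the 190 miRNAs that every one of the 8 samples measured. The cards measured 239 to 256 miRNAs per sample, and 227 miRNAs were tested. Some cards stand apart. Wild type 1 had the highest global mean Ct (29 cycles), the U6 wells of samples 7a and 8a of the MLC/SOD1[G93A] group ranged over 2.14 and 1.97 cycles, against 0.39 to 1.05 in the other 6 samples, and a plant miRNA that serves as negative control had a Ct of 29.85 in 7a and none in any other sample. The global mean raised every log2 change by 0.35 compared with U6, for miRNAs measured in all samples. Of the neuron markers listed for this tissue, 5 of 6 were measured in every sample, among them miR-124 and miR-9, and miR-153 in 5 samples.

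miR-129-5p was lower in the MLC/SOD1[G93A] samples than in wild type, while miR-129-3p and miR-132 differed by less than the spread between samples. Against U6 its log2 change was -1.57, a level 2.96-fold lower, and against the global mean it was -1.22, a level 2.32-fold lower. Neither change passed the adjustment over all miRNAs. The ratio of the 5p to the 3p arm, which needs no reference, was lower in 4 of 4 MLC/SOD1[G93A] samples than in any wild type sample. Groups stood apart, in either direction, for 20% of the 15 miRNAs with both arms tested.

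The Ct of miR-129-5p was 30.83, 30.79, 30.87 and 30.58 in wild type 1 to 4 and 32.34, 31.53, 32.18 and 32.89 in samples 5a to 8a. The wild type values lay between 30.58 and 30.87, whereas every MLC/SOD1[G93A] sample needed more cycles than any wild type sample (exact permutation test, two-sided, p = 0.0286, which is the lowest p this design can give). Without any reference, groups stood apart in this way, with the lower level in MLC/SOD1[G93A], for 3.08% of the 227 miRNAs, and in either direction for 4.41%. A raw Ct is not corrected for differences between cards. The global mean Ct was itself 0.25 cycles higher in MLC/SOD1[G93A] samples (exact permutation test, two-sided, p = 0.371). Fewer cells that hold the miRNA and less miRNA per cell cannot be told apart in these bulk samples.
Relative to U6, the log2 level of miR-129-5p was -13.38, -12.59, -12.43 and -12.44 in wild type 1 to 4 and -13.84, -13.03, -15.3 and -14.93 in samples 5a to 8a. The groups overlapped through wild type 1, which lay below sample 6a. The means were -12.71 ± 0.45 (SD, n = 4) and -14.28 ± 1.04 (SD, n = 4), and the exact permutation test (two-sided) missed the threshold of 0.05 (p = 0.0571). In limma the change of -1.57 had a standard error of 0.62 and a 95% interval from -2.87 to -0.26, and an adjusted p of 0.963 (unadjusted 0.0212). At an unadjusted p under 0.05, 1 of the 3 miRNAs, miR-129-5p, was lower relative to U6, where 2.2% of all miRNAs tested were. None was higher, beside 0.441% of all, and 0 of the 3 had groups that stood apart, beside 1.76%. With an adjusted p, 0 of the 3 and 0% of all were called in either direction in limma. The study's methods name the Mann-Whitney test for cases where no other test is specified. Its exact form cannot go below p = 0.0286 with 4 against 4, so its lack of calls after adjustment over 227 miRNAs says nothing. The exact Mann-Whitney test gave an unadjusted p of 0.0571 for miR-129-5p with both references.

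Relative to the global mean, the log2 level of miR-129-5p was -1.83, -2.31, -2.76 and -2.56 in wild type 1 to 4 and -3.56, -2.66, -3.49 and -4.62 in samples 5a to 8a. Sample 6a lay among the wild type values and the other MLC/SOD1[G93A] samples lay below all of them. The change of -1.22 had a standard error of 0.40 and a 95% interval from -2.12 to -0.31 in limma (adjusted p = 0.427, unadjusted 0.0138), and the exact permutation test gave p = 0.0571. Here too 1 of the 3 miRNAs was lower at an unadjusted p under 0.05, beside 5.73% of all miRNAs tested, and 0 were higher, beside 3.52%. Groups stood apart for 0 of the 3, beside 4.41%. By unadjusted p, miR-129-5p ranked 5 of 227 relative to U6 and 6 of 227 relative to the global mean. Samples 7a and 8a gave the lowest values relative to U6 and have the widest U6 wells. Without 7a the change was -1.22 against U6 and -1.25 against the global mean, and without 8a it was -1.35 and -0.90.

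**Figure D1:**
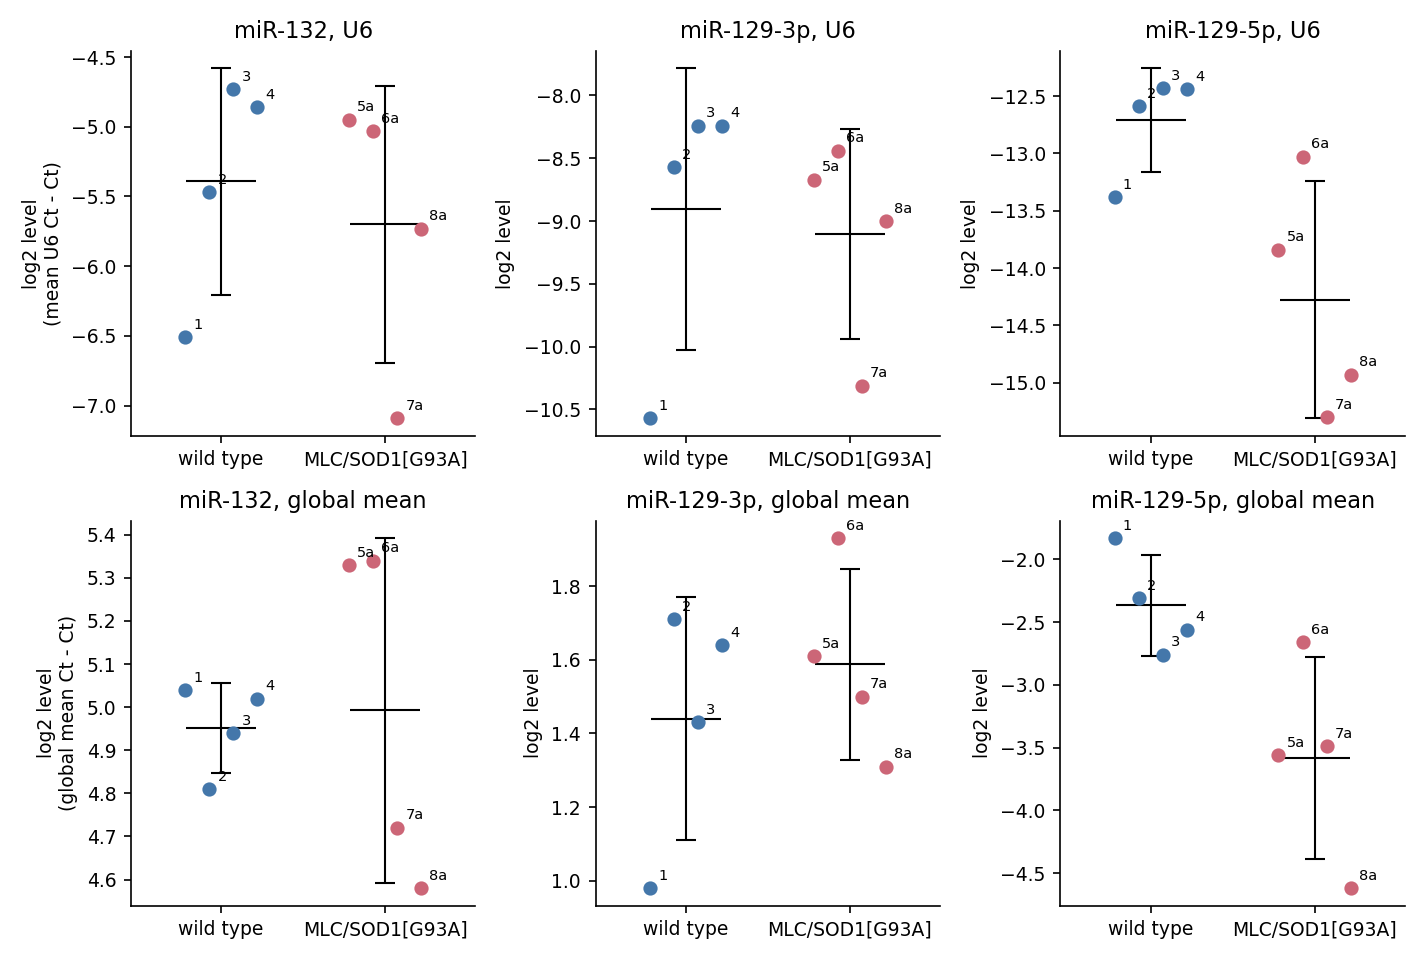
Log2 level of miR-132, miR-129-3p and miR-129-5p in each sample, relative to the mean of the U6 wells (upper row) and to the global mean Ct (lower row), with the sample number beside each point, the horizontal line at the group mean and the bar at ± 1 SD (n = 4). For miR-129-5p, 3 of 4 MLC/SOD1[G93A] samples lie below all wild type samples in either row, and for the other miRNAs the groups overlap throughout. The vertical scales differ between panels.

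The precision at this level is limited, since miR-129-5p crossed the threshold late, at a mean Ct of 31.5. Its SD between samples, pooled over the groups and relative to the global mean, was 0.64, and the median SD of the 43 other miRNAs within 1 cycle of it was 0.52. Of these 43, 16 had a larger SD than miR-129-5p, so its spread was within the range for assays of this Ct. miR-129-3p, with a mean Ct of 27.01, had a SD of 0.30, and miR-132, with a mean Ct of 23.56, one of 0.29.

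For miR-129-3p the Ct was 28.02, 26.77, 26.68 and 26.38 in wild type 1 to 4 and 27.17, 26.94, 27.19 and 26.96 in samples 5a to 8a. The MLC/SOD1[G93A] samples lay within the wild type range, and wild type 1 needed the most cycles of all. Set against the global mean, its log2 level was 0.98, 1.71, 1.43 and 1.64 in wild type 1 to 4 and 1.61, 1.93, 1.5 and 1.31 in samples 5a to 8a, again with overlapping groups. The change was -0.20 relative to U6 (standard error 0.66, 95% interval -1.60 to 1.19, adjusted p = 0.975 from limma) and 0.15 against the global mean (standard error 0.25, 95% interval -0.41 to 0.71, adjusted p = 0.955). The latter interval covers a level from 0.752 to 1.64 times that of wild type, so a change of the size seen for miR-129-5p lies outside it, relative to the global mean. Relative to U6 the interval still holds a level as low as 0.331 times that of wild type.

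The ratio of the arms was taken within each sample as the Ct of miR-129-3p minus the Ct of miR-129-5p, the log2 of 5p over 3p. Assays differ in efficiency, so this value is not the molar ratio of the arms and only its difference between samples was read. It was -2.81, -4.02, -4.19 and -4.20 in wild type 1 to 4 and -5.17, -4.59, -4.99 and -5.93 in samples 5a to 8a. The groups did not overlap, with 0.39 between the lowest wild type sample (4) and the highest MLC/SOD1[G93A] sample (6a). The means were -3.81 ± 0.67 (SD, n = 4) and -5.17 ± 0.56 (SD, n = 4), a difference of -1.37 (exact permutation test, two-sided, p = 0.0286). On the linear scale the 5p arm was 2.58-fold lower against the 3p arm in MLC/SOD1[G93A] samples. The 5p assay cannot tell Mir129-1 and Mir129-2 apart, and the 3p assay may not read Mir129-1. The value therefore need not be the ratio within a single hairpin, and the share of each gene was not tested.

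Wild type 1 lay 1.21 above the next wild type sample in this ratio. Its raw Ct stood apart for the 3p arm, at 28.02 where the other wild type samples had 26.38 to 26.77, and lay within their range for the 5p arm. With a reference the 5p arm of this sample lay at the edge of its group too, lowest relative to U6 (-13.38) and highest relative to the global mean (-1.83). Without wild type 1 the difference of the ratio was -1.03, the groups remained apart and the exact permutation test gave p = 0.0571. Without 8a, the lowest sample, it was -1.11 (exact permutation test, p = 0.0286, again the lowest p that can be had).

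The card holds 36 miRNAs with a 5p and a 3p assay, and in 15 of them both arms were measured in at least 3 samples of each group. Their arm ratios were compared in the same way, a comparison that was added after the values of miR-129 had been seen. Groups did not overlap for 3 of the 15 pairs, or 20%, which are miR-129, miR-339 and miR-369. The difference of miR-129 was the lowest of the 15, and those of the other 14 ran from -1.09 for miR-339 to 1.78 for miR-369, with a median of -0.35. In limma over the 15 pairs, miR-129 had a standard error of 0.44 and an adjusted p of 0.0443. The pair of miR-369 (adjusted p = 0.0273) was called too, in the opposite direction, so 13.3% of the pairs were called. The call of miR-129 is close to the threshold: leaving out wild type 1 raised its adjusted p to 0.108, and leaving out wild type 3, wild type 4, 5a, 7a or 8a also ended the call.

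**Figure D2:**
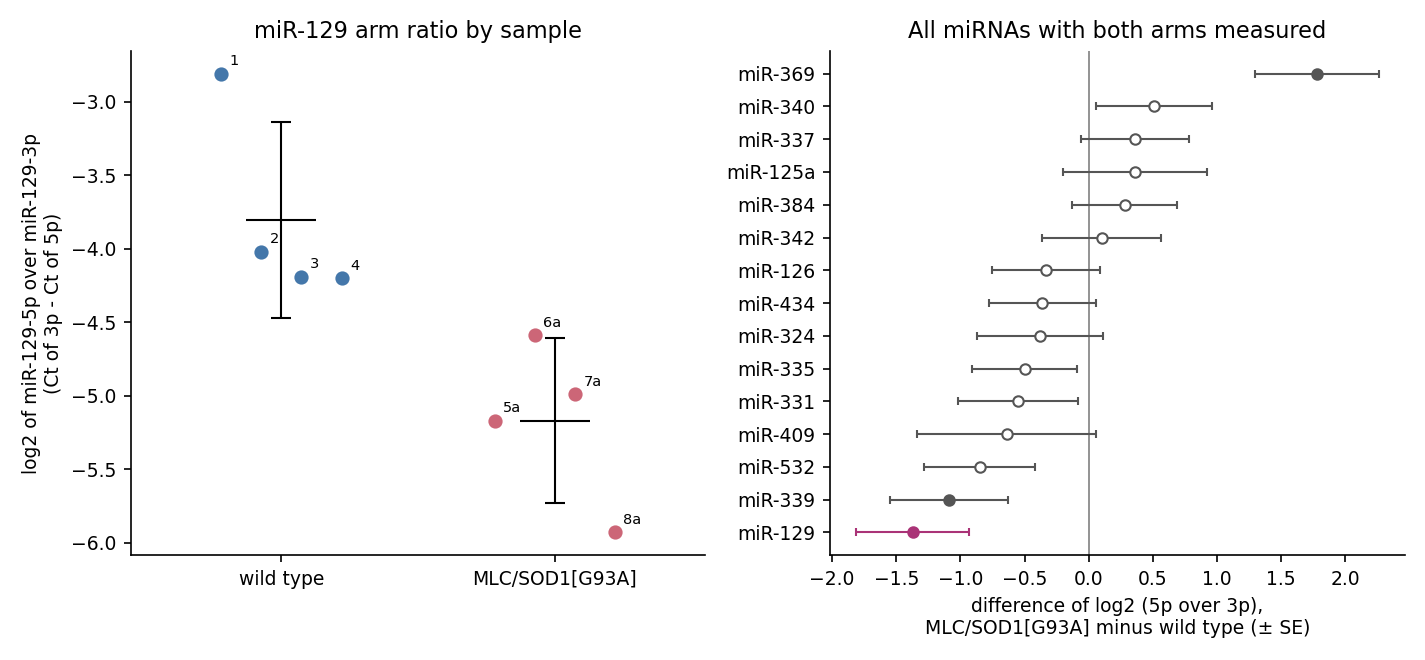
Left, the log2 of miR-129-5p over miR-129-3p in each sample, with the sample number, the group mean and ± 1 SD (n = 4). Right, the difference of the log2 arm ratio between the groups for the 15 miRNAs with both arms measured, ± the standard error from limma, with filled points where the groups do not overlap. All 4 MLC/SOD1[G93A] samples lie below all wild type samples for miR-129, and miR-339 and miR-369 are the other pairs whose groups stand apart.

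The level of miR-132 did not differ between the groups beyond the spread. Its Ct was 23.96, 23.67, 23.17 and 23.00 in wild type 1 to 4 and 23.45, 23.53, 23.97 and 23.69 in samples 5a to 8a, and the ranges overlapped for most of their length. This mean Ct was the 9th lowest of the 190 miRNAs measured in all samples, an order that also holds the efficiency of each assay. Relative to U6 the level was -6.51, -5.47, -4.73 and -4.86 in wild type 1 to 4 and -4.95, -5.03, -7.09 and -5.73 in samples 5a to 8a. The lowest sample of each group was the one with the lowest U6 Ct, wild type 1 and 7a. The change was -0.31 (standard error 0.65, 95% interval -1.66 to 1.04, adjusted p = 0.975 from limma).

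Relative to the global mean, miR-132 lay at 5.04, 4.81, 4.94 and 5.02 in wild type 1 to 4 and at 5.33, 5.34, 4.72 and 4.58 in samples 5a to 8a. The wild type samples lay close together, whereas 5a and 6a were above all of them and 7a and 8a below all of them. The change was 0.04 (standard error 0.25, 95% interval -0.52 to 0.60, adjusted p = 0.978 from limma), and the exact permutation test gave p = 0.857. The interval covers levels from 0.70 to 1.52 times that of wild type. The SD was 0.11 in wild type samples and 0.40 in the others, and the spread itself was not compared by a test.

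The reference decided the sign of the small changes and not that of miR-129-5p. With each single control in place of U6, miR-129-5p changed by -1.60 (snoRNA202), -1.08 (snoRNA135), -0.63 (Y1) and -3.84 (U87, which had a Ct of 18.40 in 8a and 27.87 to 29.54 in the other samples). With the mean of these 4 controls it was -1.78, with the mean of the controls other than U87, chosen after seeing the data, it was -1.10, and with no reference at all it was -1.47. The change of miR-132 was -0.34 with snoRNA202, 0.18 with snoRNA135 and 0.63 with Y1, and that of miR-129-3p was -0.23, 0.29 and 0.74. The distance between both arms of miR-129 is the same with every reference. In all 22 alternatives to the U6 fit that gave a value, miR-129-5p was lower, at an unadjusted p under 0.05 in 15 and at an adjusted p under 0.05 in 0.

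**Figure D3:**
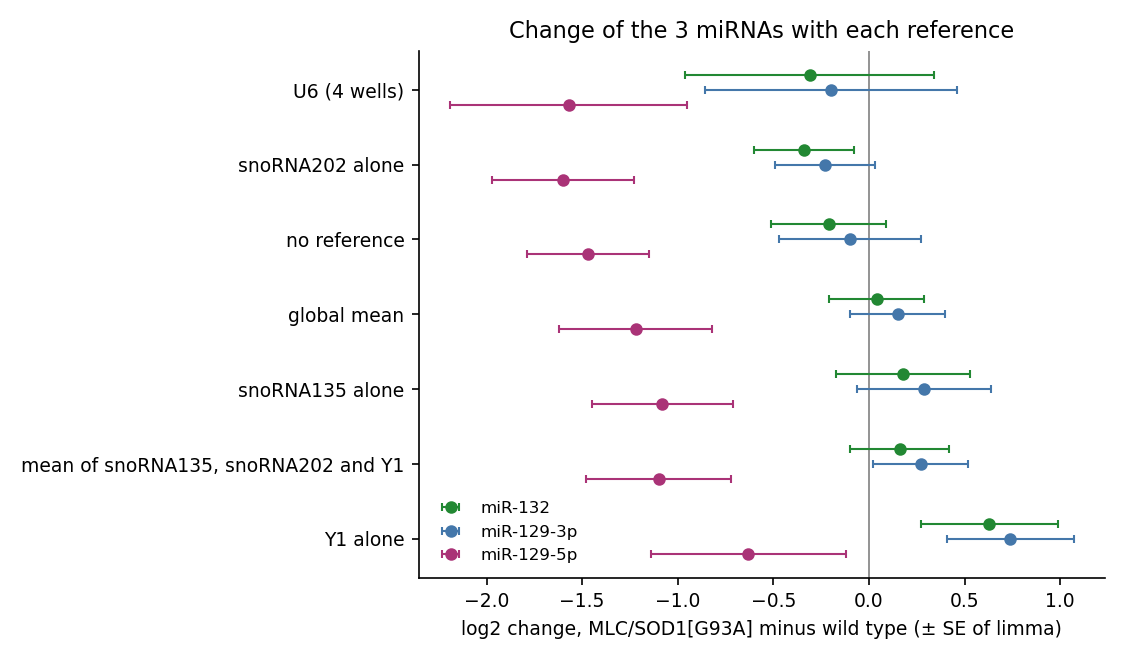
Log2 change (MLC/SOD1[G93A] minus wild type, ± standard error from limma) of the 3 miRNAs with U6, snoRNA135, snoRNA202, Y1, the mean of these 3 small RNAs, the global mean or no reference. U87 and the mean that includes it are left out because its well in 8a stood far from the others. miR-129-5p lies below 0 with each of these references, between -1.60 and -0.63, whereas miR-132 and miR-129-3p lie on either side of 0.

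Among all 227 miRNAs, relative to the global mean, 4 had a lower change than miR-129-5p (miR-130b, miR-223, miR-325 and miR-369-3p, named here after their values were seen). All 4 had the same adjusted p as miR-129-5p, 0.427.

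**Figure D4:**
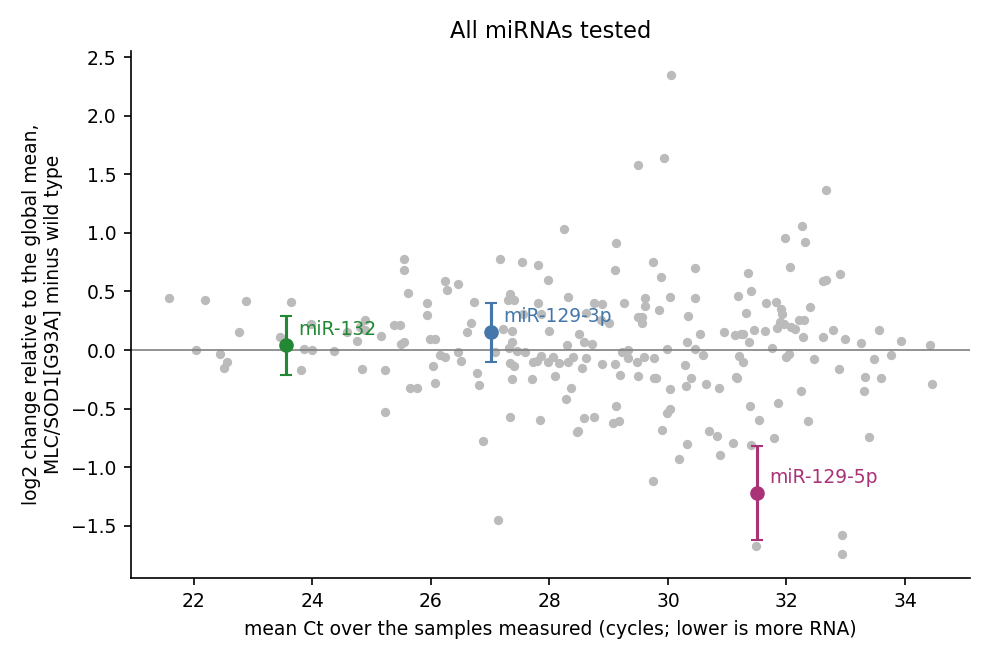
Log2 change relative to the global mean (MLC/SOD1[G93A] minus wild type) against the mean Ct of each of the 227 miRNAs tested, grey, with the 3 miRNAs in colour ± the standard error from limma. miR-132 and miR-129-3p lie near 0 and miR-129-5p at -1.22, at a mean Ct of 31.5.

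The miRNAs with the most similar profile were found by the mean absolute difference of the centred levels over the 8 samples, relative to the global mean, among 189 others. For miR-132 these were miR-543 (mean difference 0.12) and miR-337-3p (0.14), where the median over all 189 was 0.39. For miR-129-3p they were miR-708 (0.09) and miR-30d (0.11), with a median of 0.42. miR-129-5p had no neighbour as close. The nearest were the rat assay for miR-532-5p (0.42) and miR-92a (0.44), with a median of 0.75, and their own changes relative to the global mean were -0.48 (standard error 0.31) and -0.42 (standard error 0.27).

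A list of 19 other miRNAs described at synapses or in the response to activity was compared for context. On the card 19 of 19 have an assay and 18 were tested. miR-381 was measured in only 2 samples, and its mean Ct of 17.4 was not read as a level. The rat assay for miR-381, which is not in the list, had a mean Ct of 31.15. It changed by -0.23 relative to the global mean (standard error 0.45, adjusted p = 0.964 from limma). None of the 18 had an adjusted p under 0.05 in limma with either reference, and at an unadjusted p under 0.05 there were 0 with U6, beside 2.2% lower over all miRNAs tested, and 2 with the global mean, both lower, beside 5.73%. With so few miRNAs in the list, nothing particular to it is read from these counts. The median change of the list was -0.42 with U6, beside -0.31 over all miRNAs tested, and -0.02 with the global mean, beside 0.04. The lower ones were miR-34a, known for its link to p53 and present at synapses, and miR-181c. The change of miR-34a relative to the global mean was -0.78 (standard error 0.26, adjusted p = 0.427), from 2.04 ± 0.27 (SD, n = 4) to 1.26 ± 0.37 (SD, n = 4). That of miR-181c was -0.73 (standard error 0.30, adjusted p = 0.515). For both the groups did not overlap, as for 4.41% of all miRNAs with this reference.

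Among the 18 tested, miR-138, miR-9 and miR-26a had the lowest mean Ct. miR-138 limits dendritic spine size, miR-9 is a neural progenitor and neuron miRNA, and miR-26a is expressed in many cell types. Their changes relative to the global mean were 0.44 (standard error 0.35), -0.10 (0.23) and 0.11 (0.22), and none is beyond the spread. The neuron markers measured in all samples (5 of 6), averaged relative to the global mean, ranged from 2.17 to 2.25 in wild type and from 1.94 to 2.21 in MLC/SOD1[G93A] samples. Those of oligodendrocytes (3 of 3) ranged from 1.70 to 2.44 and from 1.45 to 1.89, and those of microglia and leukocytes (5 of 6) from 0.69 to 1.32 and from 0.50 to 0.83. Blood markers (2 of 3, with no entry for miR-144) ranged from -0.13 to 1.88 and from -0.25 to 0.66, and skeletal muscle markers (3 of 4) from 1.41 to 1.97 and from 0.91 to 2.49. The ranges of all 5 marker lists overlapped between the groups, but an average can hide members that moved apart. Relative to the global mean, the oligodendrocyte changes were -0.11 (miR-219), -0.80 (miR-338-3p) and 0.44 (miR-138). Those of microglia and leukocytes were -1.45 (miR-223), -0.14 (miR-146a), -0.61 (miR-142-3p), 0.14 (miR-155) and 0.20 (miR-150). The neuron changes were -0.25 (miR-124), -0.10 (miR-9), -0.12 (miR-128a), -0.17 (miR-218) and 0.00 (miR-137). For blood they were -1.12 (miR-451) and 0.09 (miR-486), and for skeletal muscle -0.15 (miR-1), -0.01 (miR-133a) and -0.10 (miR-133b). The part of the marker lists in the lower miR-129-5p was not tested.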

How the data were processed

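Total RNA of 8 lumbar ventral spinal cord samples (600 ng each) was reverse transcribed by the authors with Megaplex primer pools and run on the mouse TaqMan miRNA array set (version 3), of which card A is used here. The Ct values, deposited without normalization and treated here as a score per assay, came from SDS RQ Manager 2.4. The authors deposited a table of Ct minus the mean U6 Ct on the log2 scale as well, which matched the Ct values of the 3 miRNAs within 0.01, and a table of their own ratios between the groups, which was not used. Wild type columns carry the label numbers 1 to 4, whereas the MLC/SOD1[G93A] columns are numbered 5a to 8a, so only their group is known.

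Following the study's methods, values beyond 35 cycles were dropped, and a miRNA was tested if 3 of the 4 samples on either side measured it. limma 3.58.1 (R 4.3.3) was fitted without covariates, with Benjamini-Hochberg adjustment over all 227 miRNAs and a threshold of 0.05. Single values and ratios were compared with two-sided exact permutation tests (70 arrangements of 4 against 4). The scripts were tested on simulated data. A card gives no read depth, so the number of samples limits the precision. The miRNAs and lists were chosen with earlier results of these data known. Named were the 3 miRNAs, the 2 nearest profiles of each, and from the synapse list those with an unadjusted p under 0.05 and the 3 with the lowest mean Ct. Markers were listed for neurons, oligodendrocytes, microglia and leukocytes, blood and muscle. The names of 280 of 375 card miRNAs matched a RefSeq mature miRNA. Alternatives were other references, a Ct limit of 32 or 40, stricter and looser handling of missing values, other tests, the authors' normalized table and leaving out each sample.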

Additional observations from a re-analysis of the deposited data

Results flagged for a closer look

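A sample was singled out where its distance to the nearest of the other 3 took up most of the range of its group. This happened in 3 of 14 sets of 4 values (chance alone gives about 1 in 20), each time for wild type 1. Its log2 level relative to U6 was -10.57 for miR-129-3p (others -8.57 to -8.24) and -13.38 for miR-129-5p (others -12.59 to -12.43). Its log2 ratio of miR-129-5p over miR-129-3p was -2.81 (others -4.20 to -4.02). The first 2 values share the U6 Ct of this sample. The plant miRNA that serves as negative control was picked up at a Ct of 29.85 in sample 7a, and in no wild type sample.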

How the results depend on the processing

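Among the alternatives, the mean of snoRNA135, snoRNA202 and Y1 and the comparison over all arm pairs were chosen after seeing the data. miR-129-5p kept a negative change in every alternative that gave a value. Other tests and other handling of missing values could not turn this sign, since they leave its values as they are. Leaving out single samples gave -1.98 to -1.22 relative to U6 and -1.52 to -0.90 relative to the global mean. With a Ct limit of 32, miR-129-5p was measured in too few samples for a value of the change or of the arm ratio. The arm ratio ran from -1.56 to -1.03 without single samples, with p from 0.0286 to 0.0571, the latter without wild type 1. Over all arm pairs in limma the same differences had adjusted p-values from 0.0308 to 0.108, against 0.0443 with all samples. The sign turned for the small changes. Replacing U6 by snoRNA135, Y1, the mean of snoRNA135, snoRNA202 and Y1, or the global mean put miR-132 at 0.18, 0.63, 0.16 and 0.04. In the same order miR-129-3p was at 0.29, 0.74, 0.27 and 0.15. Relative to U6 without single samples, miR-132 ran from -0.68 to 0.15 and miR-129-3p from -0.76 to 0.20. Relative to the global mean, miR-132 was at -0.05 with the mean Ct of all miRNAs measured in each sample, from -0.07 to 0.15 without single samples, and miR-129-3p was from -0.01 to 0.24. The cause was not tested. The number of miRNAs called lower relative to U6 ran from 0 to 1 without single samples, the 1 without wild type 1. Lower at an unadjusted p were 5 miRNAs relative to U6 and 34 without wild type 1, and higher was 1 but 67 with Y1. With the global mean there were 13 lower and 8 higher ones, and 21 and 27 without wild type 1. No paired analysis was run, since the labels pair no wild type sample with an MLC/SOD1[G93A] sample.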
